A study of Mus musculus with 8 samples.

Results

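The identity genes of the ovarian surface and of the peritoneal lining were examined in ID8 IP2 cells with and without active Notch3. ID8 IP2 is a mouse ovarian surface epithelial line that had been passaged through mice as a tumor. The genes were picked by name with earlier results of these data known, and there are 10 of them: Msln, Upk3b, Lrrn4, Muc16 and Folr1, which encode proteins of the cell surface, and Wt1, Gata4, Gata6, Bnc1 and Pax8, which encode nuclear factors. Of the 23284 gene symbols in the files, 9 were among these 10, and Muc16 was not analysed here. Enough counts for a test were found for 8, among 12430 genes tested in all. The comparison asks whether RNA of these genes differed between Notch3IC and Control lines.

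The ovarian surface epithelium is a sheet of modified mesothelium, continuous with the lining of the peritoneal cavity, and both arise from the coelomic epithelium of the embryo. Wt1 and Gata4 act early in that epithelium where the gonad forms. Mesothelium carries mesothelin and uroplakin 3b on its surface, while Pax8 marks the epithelium of the oviduct and uterus and is used to tell those tissues from mesothelium. Notch receptors are cleaved when a neighboring cell presents a ligand, and the released intracellular domain works in the nucleus with the DNA-binding protein RBPJ.

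Polyadenylated RNA was sequenced from 8 lines, a Control line and a Notch3IC line in each of Sets 1 to 4. Control lines had received the empty pCCL lentiviral vector. In Notch3IC lines the same vector brought in codons 1664 to 2318 of mouse Notch3, its intracellular domain, with an HA tag and IRES-GFP downstream. Each set came from a lentiviral infection of its own, so the sets are replicates at the level of infection of a common parent line. All lines also carried luciferase and mCherry from an earlier virus, and by the study's methods all were probably mycoplasma positive, Control lines included, as judged by a test made afterwards. The domain was supplied without need for ligand or cleavage, which limits the lines as a model of receptor signaling. Gene counts summed to 19013578 to 28208072 per Control library (n = 4) and to 15524262 to 27107061 per Notch3IC library (n = 4). Normalized counts are counts scaled to a common library size. A change was called when the adjusted p was under 0.1 and the log2 fold change at least 1 in size.

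The labels were checked with Notch3 and its target Hey1, which encodes a transcriptional repressor. Notch3 had 38.7, 40.6, 70.8 and 42.0 normalized counts in Control against 4322, 467, 9220 and 5842 in Notch3IC, in the order of the sets. Hey1 had 29.8, 20.3, 56.5 and 34.1 in Control against 4079, 438, 10642 and 8014 in Notch3IC. Both were higher in every Notch3IC library than in any Control library, and the library of Set 2 was the lowest of the Notch3IC group for each. Heyl, a relative of Hey1, had at most 1.98 normalized counts in a Control library and at least 215 in a Notch3IC library. Nrarp, a feedback inhibitor of Notch, had 9.55 to 33.5 in Control and 221 to 6033 in Notch3IC.

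Set 1 was the lowest set for the tested identity genes in both groups. Each of the 8 tested identity genes had its lowest Control value in the Control library of Set 1 and its lowest Notch3IC value in the Notch3IC library of Set 1. The share of all genes tested with this pattern was not computed, so it is not shown to be particular to these 8. An outlier test of single libraries, given in the last paragraph, flagged 0 of 18 groups. Because Set 1 was lowest throughout, fits without it are given below beside those with all sets.

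Control cells expressed most of the identity genes, at unequal levels. Upk3b was the most abundant per exon length, with 264.9 ± 129.5 RPKM, the counts per kilobase of exon scaled by library size (SD, n = 4 libraries), above 99.4% of the tested genes with a known length. Wt1 followed at 85.3 ± 30.7 and Msln at 32.9 ± 16.1 on the same scale. Gata6 at 27.7 ± 5.23, Bnc1 at 27.0 ± 8.98, Lrrn4 at 25.5 ± 14.3 and Gata4 at 23.0 ± 3.54 came next. From Msln to Gata4 each gene differed from its neighbor by less than either SD, so their order is not resolved. Folr1 was far lower at 3.45 ± 1.53, below most of the genes tested. Pax8 was all but absent, with 0, 3, 0 and 3 counts in the Control libraries and 1, 3, 0 and 2 in the Notch3IC libraries. It stayed under the expression filter and no fold change is given for it. The Control lines thus carried RNA of the mesothelial and coelomic genes measured here and next to none of Pax8, the oviductal marker.

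**Figure D1:**
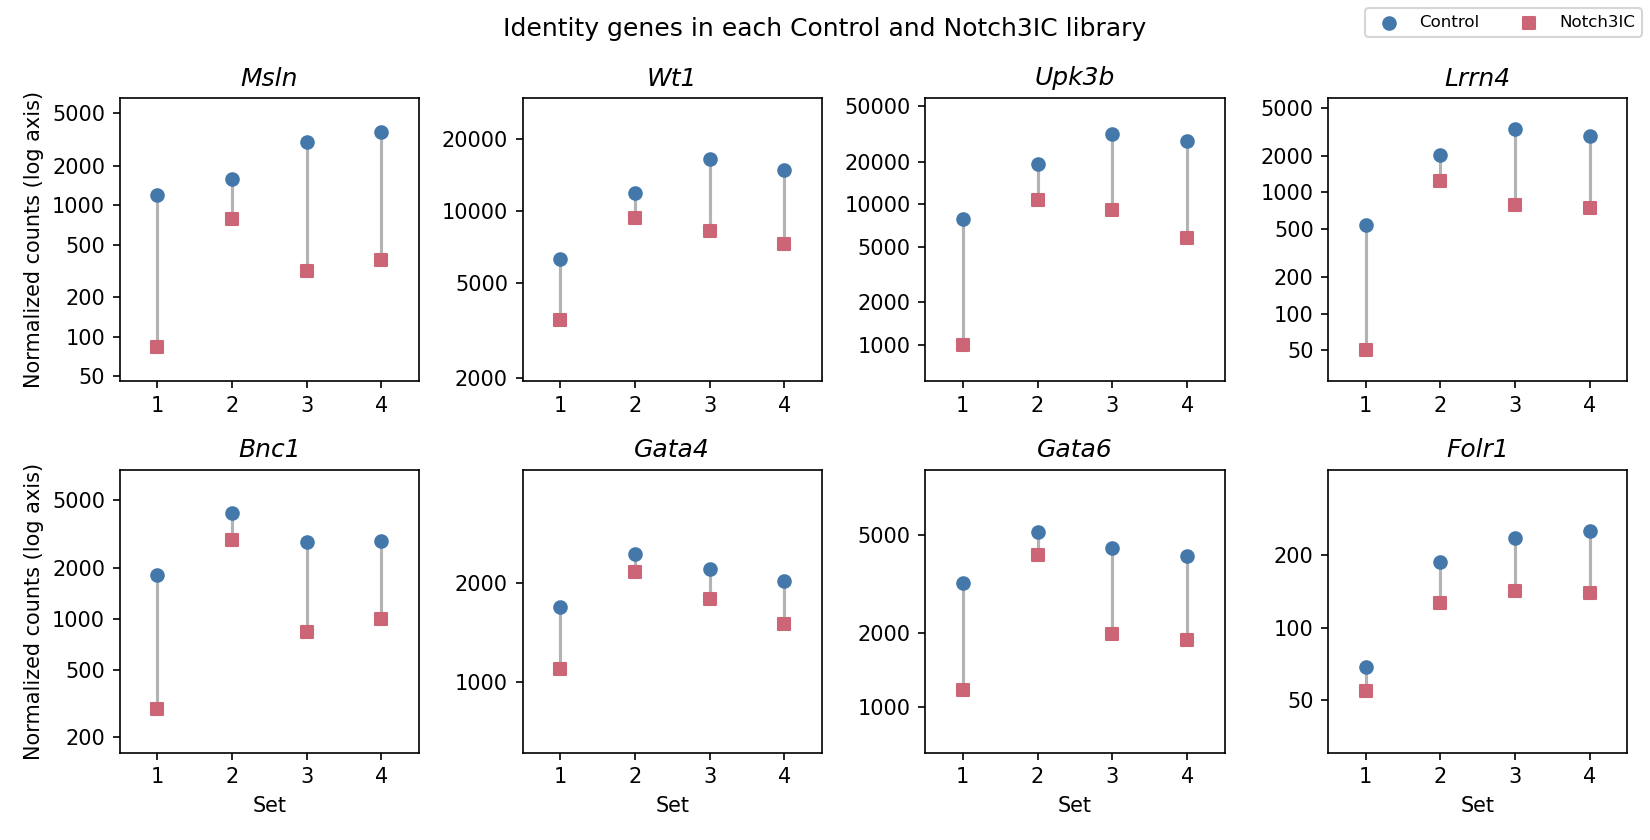
Normalized counts (log axis) of the 8 tested identity genes in each library, by set. Circles are Control lines, squares are Notch3IC lines and a gray line joins the pair of a set. In all 8 genes and all 4 sets the Notch3IC point lies below its own Control point, the gap is smallest in Set 2 for 7 genes, and Msln is the gene in which the groups do not overlap.

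All 8 tested identity genes were lower in the Notch3IC line than in the Control line of the same set in 4 of 4 sets. Across all genes tested, 19.4% were lower in all 4 sets. The median log2 fold change of the 8 genes was -1.05, against -0.01 for all genes tested. Over all 8 libraries, with condition as the only term, 1 of the 8 was called lower, Msln, and 0 were called higher. Among all genes tested, 0.74% were called lower and 3.4% higher. At an unadjusted p under 0.05, 3 identity genes were lower, where the share over all genes tested was 6.65%, and 0 were higher. DESeq2 called 2 lower (Msln and Upk3b) and 0 higher, against 1.37% lower among the genes to which it gave an adjusted p. When the matched set was added to the model as a block, 5 of the 8 were called lower, Msln, Upk3b, Lrrn4, Bnc1 and Gata6, where the share over all genes tested was 2.53%. In that fit all 8 had an adjusted p under 0.1 with a negative log2 fold change, against 12.1% of all genes tested. In RNA from whole cultures, fewer cells that express a gene and less RNA of it per cell cannot be told apart.

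Msln encodes mesothelin, a glycoprotein anchored in the membrane of mesothelial cells that binds MUC16. It had 1191, 1582, 3000 and 3625 normalized counts in Control against 82.8, 779.5, 314 and 381 in Notch3IC. Every Notch3IC library was below every Control library, which held for 3.75% of all genes tested. Msln fell to 16.6% of its Control mean, a log2 fold change of -2.60 (standard error, SE, 0.63, 95% interval -4.03 to -1.17, edgeR adjusted p = 0.0625). Its log2 fold change ranked 7 from the lowest among the 12430 genes tested. Its per-length level moved from above 86.2% of tested genes in Control to above 41.7% in Notch3IC. The block moved it to -2.82 (adjusted p = 0.0311). The call held without Set 1 (log2 fold change -2.50, adjusted p = 0.067) and without Set 2 (-3.32, adjusted p = 0.0332). It was lost without Set 3 (-2.37, adjusted p = 0.401) and without Set 4 (-2.30, adjusted p = 0.493), fits in which at most 1 gene of all those tested was called. Leaving out single libraries, it was lost without the Control or the Notch3IC library of Set 3 or of Set 4, with adjusted p from 0.162 to 0.195.

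Upk3b encodes uroplakin 3b, a membrane protein of mesothelium and urothelium. Its normalized counts were 7889, 19340, 31801 and 28255 in Control against 993, 10704, 9110 and 5731 in Notch3IC. The Notch3IC libraries of Sets 2 and 3 lay above the Control library of Set 1, so the groups overlapped. Within sets the log2 ratios were -2.99, -0.85, -1.80 and -2.30. With condition alone the log2 fold change was -1.72 (SE 0.68, adjusted p = 0.22) and Upk3b was not called. The block (-1.98, adjusted p = 0.0319) brought a call, as did DESeq2 (-1.74, adjusted p = 0.0469) and the fit without Set 1 (-1.64, adjusted p = 0.0653). At 80.5 ± 52.1 RPKM it remained the most abundant of the identity genes in Notch3IC cells.

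Lrrn4, a leucine-rich repeat membrane protein used as a mesothelial marker, had 534, 2053, 3332 and 2909 normalized counts in Control against 50.3, 1253, 787 and 741 in Notch3IC. Both Set 1 values were the lowest of their groups by a wide margin, and the Control library of Set 1 lay below 3 of the 4 Notch3IC libraries. The log2 fold change was -1.64 with condition alone (SE 0.81, adjusted p = 0.331) and -1.91 with the block (adjusted p = 0.0382), where it was called. It was also called without Set 1 (-1.59, adjusted p = 0.0653).

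Folr1 encodes folate receptor alpha, a membrane-anchored carrier of folate that is abundant in ovarian carcinoma. It had 68.4, 187, 234.5 and 249.7 normalized counts in Control against 54.8, 126, 142 and 139 in Notch3IC. The groups overlapped, and both libraries of Set 1 held the lowest values of all 8. Its log2 fold change was -0.68 with condition alone (SE 0.43, adjusted p = 0.457) and -0.64 with the block (adjusted p = 0.0407), under the fold-change limit in both. Without Set 1 it was -0.73 (adjusted p = 0.0791). Folr1 rested on 49 to 315 raw counts per library, the thinnest basis of the 8.

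Wt1, the Wilms tumor zinc finger factor, had 6312, 11837, 16410 and 14782 normalized counts in Control against 3510, 9335, 8230 and 7255 in Notch3IC. Its Notch3IC mean was 57.4% of the Control mean. The log2 fold change was -0.80 with condition alone (SE 0.36, 95% interval -1.62 to 0.02, adjusted p = 0.283) and -0.80 with the block (95% interval -1.11 to -0.50, adjusted p = 0.0275). Without Set 1 it was -0.80 (adjusted p = 0.0678). Wt1 was under the fold-change limit in all 3 fits and was not called. Its RNA stayed above 91.9% of tested genes per exon length in Notch3IC cells, so its transcript was abundant in both conditions.

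Bnc1 encodes basonuclin 1, a zinc finger protein of mesothelium and basal keratinocytes. Its normalized counts were 1819, 4194, 2824 and 2869 in Control against 293, 2895, 835 and 999 in Notch3IC. The Notch3IC library of Set 2 lay above 3 Control libraries, and the other 3 Notch3IC libraries lay below all of them. With condition alone the log2 fold change was -1.23 (SE 0.60, adjusted p = 0.322). Calls came with the block (-1.59, adjusted p = 0.0397), without Set 2 (-1.82, adjusted p = 0.0674) and without the Set 2 Notch3IC library (-2.04, adjusted p = 0.0298). Without Set 1 Bnc1 was not called (-1.08, adjusted p = 0.252). Of its exon bases, 2.11% lie over 4833418N17Rik on the opposite strand, and whether reads were counted by strand is not given in the sources used here.

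The GATA factors Gata4 and Gata6 bind the same core motif. Gata6 had 3197, 5114, 4402 and 4111 normalized counts in Control against 1171, 4154, 1969 and 1872 in Notch3IC. As for Bnc1, the Notch3IC library of Set 2 lay among the Control libraries and the other 3 lay below all of them. The log2 fold change of Gata6 was -0.88 with condition alone (SE 0.35, adjusted p = 0.23). Gata6 was called in the blocked fit (-1.01, adjusted p = 0.0348), at the edge of the fold-change limit, and without Set 2 (-1.22, adjusted p = 0.0287), but not without Set 1 (-0.78, adjusted p = 0.214). Overlap with 1010001N08Rik on the opposite strand covers 1.43% of its exon bases.

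Gata4 had 1693, 2458, 2211 and 2031 normalized counts in Control against 1098, 2164, 1785 and 1501 in Notch3IC. The ranges overlapped and the difference was the smallest of the 8 genes. Its log2 fold change was -0.36 with condition alone (SE 0.21, 95% interval -0.83 to 0.11, adjusted p = 0.406). With the block it was -0.39 (95% interval -0.59 to -0.19, adjusted p = 0.0392), so a fall as large as the fold-change limit lay outside both intervals. Without Set 1 it was -0.30 (adjusted p = 0.262). Whether Gata4 and Gata6 changed by different amounts was not tested.

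**Figure D2:**
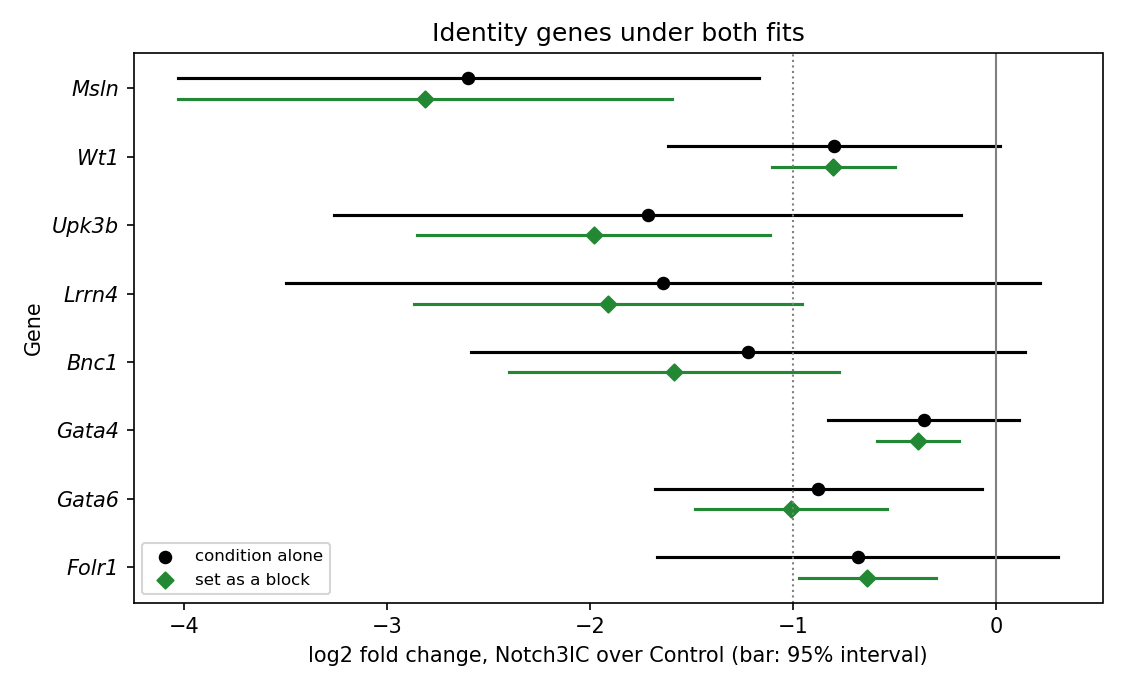
Log2 fold change of each tested identity gene, Notch3IC over Control, with condition alone (circles) and after blocking on the set (diamonds). Bars are 95% intervals and the dotted line marks the fold-change limit of -1. With the block every interval is narrower, and all 8 lie below 0.

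In Notch3IC cells Upk3b and Wt1 remained on top, at 80.5 ± 52.1 and 49.0 ± 17.5 RPKM. Gata4 at 18.0 ± 4.94 and Gata6 at 15.1 ± 8.51 followed, then Bnc1 at 11.6 ± 10.5, Lrrn4 at 8.16 ± 5.72 and Msln at 5.44 ± 4.05, each again differing from its neighbor by less than either SD. Folr1 was again the lowest of the tested genes at 2.15 ± 0.762.

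The size of the differences varied from set to set. The median log2 ratio of the 8 genes was -2.04, -0.55, -1.46 and -1.33 in Sets 1 to 4, while the median over all genes tested lay between -0.01 and 0.01 in each set. The scaling of the libraries holds that overall median near 0. It therefore cannot show whether other lowered genes varied between sets in the same way. The difference was largest in Set 1 for 6 genes and in Set 4 for 2, Wt1 and Folr1. It was smallest in Set 2 for 7 genes and in Set 1 for Folr1. For Msln the log2 ratios were -3.84, -1.02, -3.26 and -3.25, and for Lrrn4 they were -3.40, -0.71, -2.08 and -1.97. Notch3, whose counts may include reads of the introduced domain, had log2 ratios of 6.79, 3.51, 7.01 and 7.10. Set 2 held both the smallest rise of Notch3 and the smallest difference of most identity genes. Set 1, with the largest median difference, had a smaller Notch3 ratio than Sets 3 and 4. A link between the 2 was not tested. With 4 sets no correlation was computed.

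**Figure D3:**
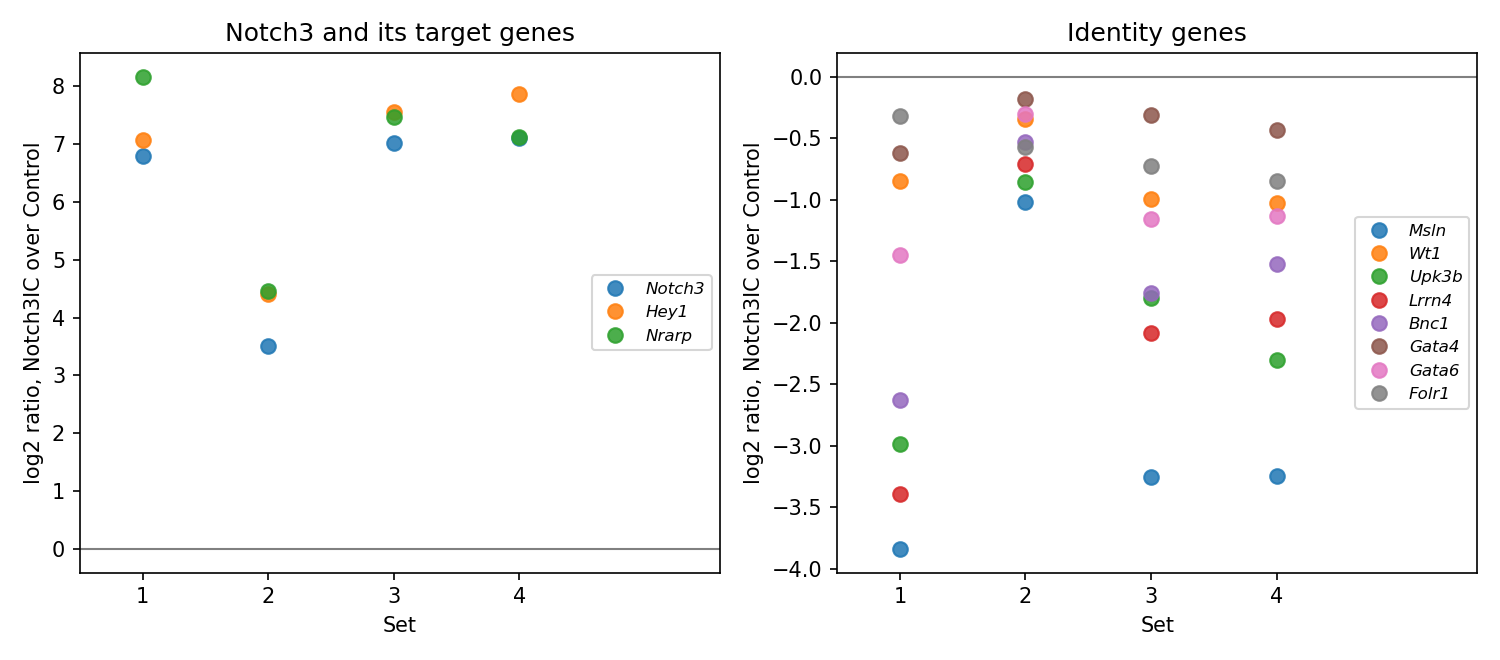
Log2 ratio of Notch3IC over Control within each of Sets 1 to 4 for Notch3 and its targets Hey1 and Nrarp (left) and for the 8 tested identity genes (right), 1 point per gene and set. Set 2 has the smallest ratios on the left, with Notch3 at 3.51, and on the right its points lie closest to 0 for all genes but Folr1, with a median of -0.55.

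Differences between the sets were tested with condition held in the model. At an adjusted p under 0.1, 7 of the 8 identity genes differed between sets, against 36.1% of all genes tested. The exception was Msln (adjusted p = 0.22), and Folr1 (adjusted p = 0.0167) and Wt1 (adjusted p = 0.0195) had the smallest values. Without the Control library of Set 1, 0 of the 8 differed between sets, and the share over all genes tested was 4.28%. Without its Notch3IC partner the values were 0 of 8 and 3.55%, so calls between sets were lost among all genes as well as among these 8. Without the Control or the Notch3IC library of Set 2, 8 of 8 differed, against 50.5% and 45.3% of all genes tested. Dropping a library of Set 3 or of Set 4 left 3 of the 8, against 16% to 20.7%.

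Leaving out whole sets changed which identity genes were called. With condition alone, 3 were called lower without Set 1 (Msln, Upk3b and Lrrn4), where the share over all genes tested was 1.21%, and 3 without Set 2 (Msln, Bnc1 and Gata6), where it was 1.83%. Without Set 3 or without Set 4, 0 were called and 1 was lower at an unadjusted p under 0.05, where the shares over all genes tested were 2.38% and 2.17%. With the block, the same 5 genes were called without Set 2 as with all sets, against 3.41% of all genes tested. The block without Set 1, Set 3 or Set 4 gave 0 calls, and all 8 genes were lower at an unadjusted p under 0.05, against 12%, 8.5% and 8.68% of all genes tested. Their adjusted p values lay between 0.112 and 0.201. All 8 kept a negative log2 fold change in each of these fits.

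The sequence before the start of the genes is shown for the 3 called with the block that have a window in RefSeq's table for GRCm38.p6. All 8 tested identity genes were lower in every set, so that did not set these 3 apart. Each window runs from 250 bases before to 50 after the annotated start, in the direction of the gene. Upk3b lies at chr5:136038246-136038545 on the plus strand, Lrrn4 at chr2:132880813-132881112 on the minus strand and Bnc1 at chr7:81992250-81992549 on the minus strand. Capitals mark matches, on either strand, to GATAA for GATA factors, TGGGAA for RBPJ, CACGTG for the E-box bound by Hey factors or GCGTGGG for WT1.
Upk3b: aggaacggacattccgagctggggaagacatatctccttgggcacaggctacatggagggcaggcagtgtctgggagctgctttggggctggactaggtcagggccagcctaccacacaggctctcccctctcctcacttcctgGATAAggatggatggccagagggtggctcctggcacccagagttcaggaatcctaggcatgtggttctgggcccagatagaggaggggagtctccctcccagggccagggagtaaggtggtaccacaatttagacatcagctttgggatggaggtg
Lrrn4: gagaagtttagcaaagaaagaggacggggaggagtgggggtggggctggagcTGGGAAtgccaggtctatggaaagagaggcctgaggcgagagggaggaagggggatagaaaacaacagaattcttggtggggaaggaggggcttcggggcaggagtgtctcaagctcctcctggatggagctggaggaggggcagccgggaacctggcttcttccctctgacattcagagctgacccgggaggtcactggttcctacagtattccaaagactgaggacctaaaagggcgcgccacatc
Bnc1: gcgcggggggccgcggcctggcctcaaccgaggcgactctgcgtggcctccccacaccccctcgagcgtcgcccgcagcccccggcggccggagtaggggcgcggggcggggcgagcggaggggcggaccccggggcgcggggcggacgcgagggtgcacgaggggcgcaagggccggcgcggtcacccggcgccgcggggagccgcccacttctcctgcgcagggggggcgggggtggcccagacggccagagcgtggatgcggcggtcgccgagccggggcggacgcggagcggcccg
Upk3b had a GATAA match at position -106 from the start and Lrrn4 a TGGGAA match at -198. The Bnc1 window had no match. The window of Pax8, not shown, also had a GATAA match, at -5, though Pax8 had at most 3 counts per library. Among 32851 promoter windows of the same length, GATAA was found in 25.4%, TGGGAA in 25.6%, CACGTG in 7.15% and GCGTGGG in 5.04%. A match to so common a string is a description of the window and does not show binding.

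Other mesothelial markers were compared from a list of 18 genes, of which 16 were tested. With condition alone edgeR called 2 lower and 1 higher, while DESeq2 called 7 lower and 2 higher. Over all genes tested, edgeR called 0.74% lower and 3.4% higher. DESeq2 called 192 lower and 708 higher among 14019 genes with an adjusted p. Pdpn, which encodes the membrane mucoprotein podoplanin, had 2104, 2753, 3007 and 3029 normalized counts in Control against 734, 1984, 999.6 and 1021 in Notch3IC. Every Notch3IC library was below every Control library, and the log2 fold change was -1.20 (SE 0.29, adjusted p = 0.0629). Upk1b, a tetraspanin uroplakin, fell from a mean of 4289 ± 1322 to one of 943 ± 784 normalized counts (SD, n = 4), for a log2 change of -2.19 (SE 0.56, adjusted p = 0.0762). Thbd, which encodes the anticoagulant receptor thrombomodulin, rose from 356 ± 40.9 to 1776 ± 1142, a log2 fold change of 2.32 (SE 0.51, adjusted p = 0.0468). The list thus held called genes in both directions. With 1 library left out, each of these 3 lost its call without either library of Set 3 or of Set 4, and Pdpn and Upk1b also without the Set 2 Control library and Pdpn without the Set 1 Notch3IC library. The adjusted p then lay between 0.103 and 0.232, with log2 fold changes of the same sign.

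The median log2 fold change of the 16 markers was -1.21, and 9 of them were lower in all 4 sets and 3 higher in all 4. Among the 12430 genes tested, 2409 were lower in all 4 sets and 2607 higher in all 4. With the set as a block 9 were called lower and 2 higher, against 2.53% and 5.19% of all genes tested. The 9 were Krt19, Pdpn, Upk1b, Gpm6a, Pkhd1l1, Aldh1a1, Cldn15, Efemp1 and Slpi, and the 2 were Thbd and Rspo1, which encodes an enhancer of Wnt signaling. All 11 of these calls were lost when Set 1, Set 3 or Set 4 was dropped from the blocked fit, and the same 11 were made without Set 2. Krt19, a keratin of simple epithelia, had 1272, 2938, 6164 and 7453 normalized counts in Control against 266, 1629, 1082 and 1134 in Notch3IC (log2 fold change -2.12, adjusted p = 0.124 with condition alone and 0.0288 with the block). Its partner Krt8 was not called (-0.74, adjusted p = 0.109). Cav1, the caveolae protein and the most abundant of the list per exon length, had 13578 ± 505 normalized counts in Control against 22211 ± 9106 in Notch3IC and was not called either (0.71, adjusted p = 0.176). Calb2, which encodes calretinin, a standard marker of mesothelium, had 0 counts in every library, and Krt7 had 46 counts in the Control library of Set 3 and at most 7 elsewhere. RNA of Calb2 was thus absent from the line in both conditions. That of Krt7, which is also on the Müllerian and tubal list, was nearly so. With condition alone and without Set 1 the calls of the list were 7 lower and 0 higher, against 151 and 399 of 12488 genes tested. Without Set 2 they were 4 and 1, against 229 and 670 of 12492. Without Set 3 or Set 4 they were 0 and 0, with 3 lower and 2 higher at an unadjusted p under 0.05 in each. Among all genes tested, the shares at that p were 2.38% and 2.17% lower and 6.49% and 5.99% higher.

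**Figure D4:**
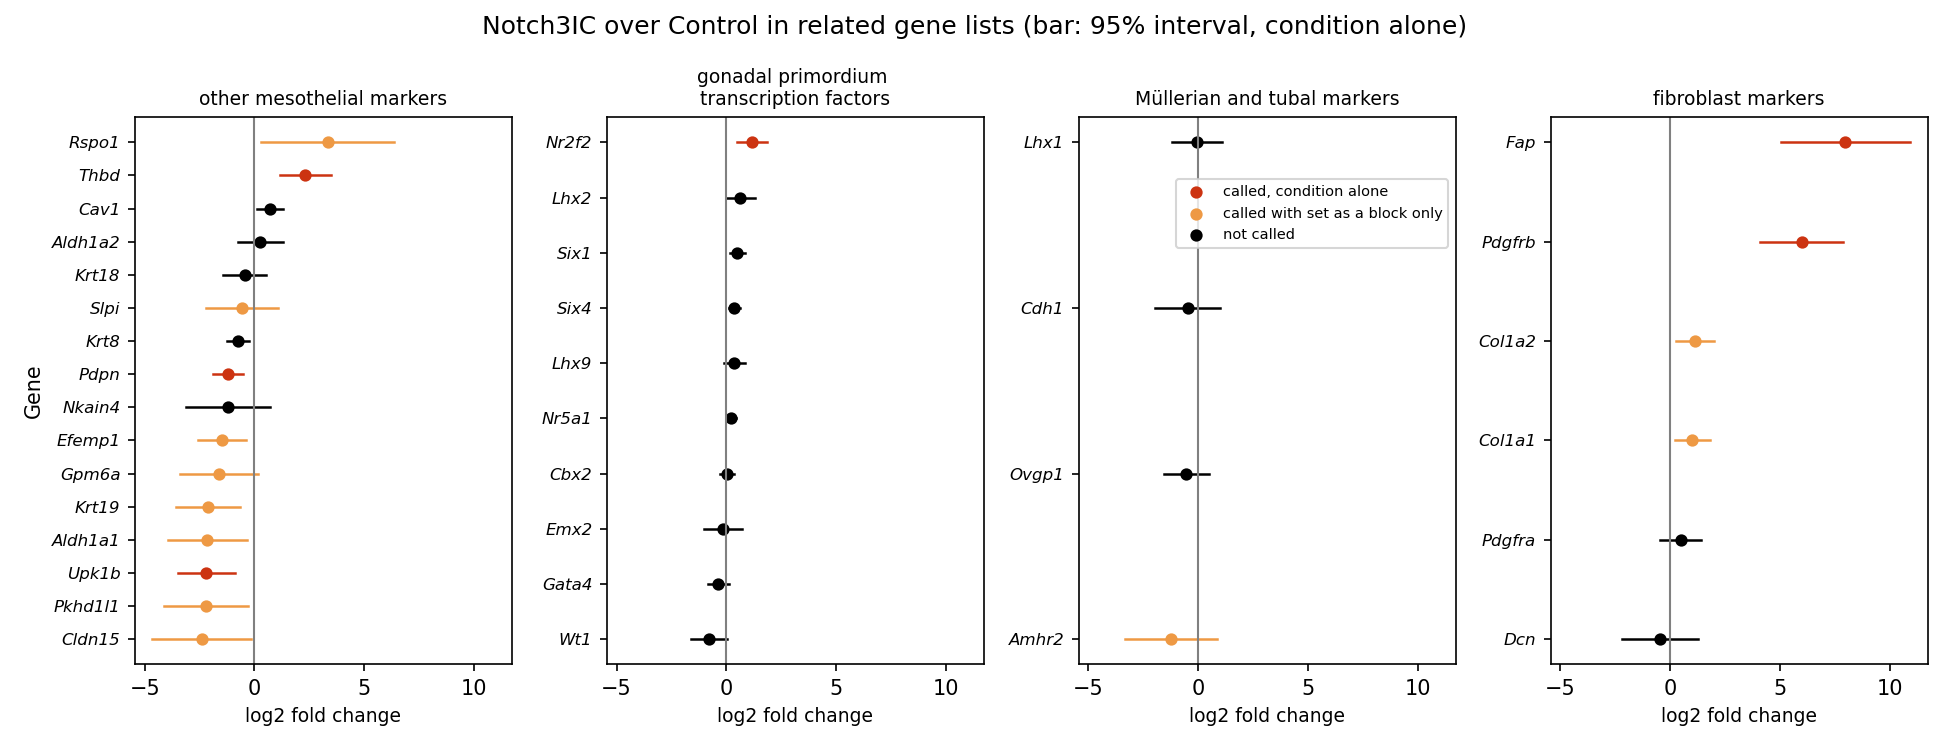
Log2 fold change, Notch3IC over Control, of the tested genes of 4 lists, with 95% intervals from the fit with condition alone. Red marks genes called in that fit, orange genes called with the set as a block alone, and black genes not called. Most other mesothelial markers lie left of 0, with Thbd and Rspo1 on the right, the gonadal factors lie between -0.80 for Wt1 and 1.17 for Nr2f2, and Pdgfrb and Fap lie far to the right among the fibroblast markers.

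The wider GATA family and its FOG partners gave 1 gene called higher and 1 lower among 7 tested. Gata3 had 753, 586, 605 and 631 normalized counts in Control against 2155, 705, 1659 and 1349 in Notch3IC, a log2 fold change of 1.19 (SE 0.29, adjusted p = 0.0681). Gata5 had 30.7, 15.5, 66.0 and 38.9 in Control against 5.59, 1.47, 13.8 and 3.38 in Notch3IC, a log2 fold change of -2.57 (SE 0.64, adjusted p = 0.07), on at most 69 raw counts. Zfpm1, which encodes the GATA cofactor FOG1, had a log2 fold change of -0.70 (adjusted p = 0.109). Zfpm2, which encodes FOG2, the partner of GATA4 in the gonad, differed little (0.02, 95% interval -0.18 to 0.22). With condition alone, neither Gata3 nor Gata5 was called without Set 1, Set 3 or Set 4 (adjusted p 0.121 to 0.51). The block with all sets called Gata3 (1.10, adjusted p = 0.0376) and Gata5 (-2.69, adjusted p = 0.0179). Dropping Set 3 or Set 4 from the blocked fit left Gata5 called and Gata3 not, and dropping Set 1 left neither. Gata3 was called in 2 of the 8 fits that leave out a library, those without the Set 1 Control or the Set 2 Notch3IC library, and Gata5 lost its call without the Control library of Set 3 or 4 or the Notch3IC library of Set 1 or 4. In the fits that leave out 1 library, adjusted p values of the lost calls were 0.121 to 0.222.

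Gonadal transcription factors of the embryo were tested for 10 of 11 listed genes, Wt1 and Gata4 included. Nr2f2, a nuclear receptor, was called higher, with 1776, 1128, 903 and 1160 normalized counts in Control against 2901, 1503, 3585 and 3146 in Notch3IC (log2 fold change 1.17, SE 0.29, adjusted p = 0.0708). That call held without the Set 1 Control or the Set 2 Notch3IC library and was lost without any other library (adjusted p 0.124 to 0.208). Nr5a1, the steroidogenic factor SF1, had 1782 ± 183 normalized counts in Control against 2077 ± 129 in Notch3IC and was not called (0.22, 95% interval 0.00 to 0.44, adjusted p = 0.275). The median of the list was 0.29. In all 4 sets 6 genes were higher and 2 lower, against 2607 and 2409 of the 12430 genes tested. The 2 lower were the identity genes Wt1 and Gata4.

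Müllerian and tubal markers were scarce. Of 12 listed genes, 4 were tested and edgeR called 0, with 0 at an unadjusted p under 0.05, while DESeq2 called Krt7 lower. Sox17 had 0 counts in every library, and Pax8, Pax2, Foxj1, Wfdc2, Wnt7a, Epcam and Krt7 did not pass the expression filter. Amhr2, which encodes the receptor of anti-Müllerian hormone, had 265 ± 188.5 normalized counts in Control against 111 ± 67.8 in Notch3IC. With condition alone it was not called over all sets (log2 fold change -1.26, adjusted p = 0.524) and was called lower without Set 1. The block called it lower (-1.16, adjusted p = 0.0277), but not once Set 1, Set 3 or Set 4 was dropped from the blocked fit. Cdh1, E-cadherin, had a log2 fold change of -0.48 (adjusted p = 0.764) and Ovgp1, an oviductal glycoprotein, of -0.54 (adjusted p = 0.581).

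Markers of other cell types were compared in the same libraries. Fibroblast markers summed to 170847, 128046, 97648 and 74070 normalized counts in Control against 336534, 157514, 202271 and 247876 in Notch3IC, most of it Col1a1. Of 8 listed, 6 were tested and edgeR called 2 higher with condition alone. Pdgfrb, a receptor of pericytes and fibroblasts, had 94.2, 205, 33.5 and 29.3 normalized counts in Control against 3472, 1839, 7749 and 9514 in Notch3IC (log2 fold change 5.99, SE 0.83, adjusted p = 0.0169). Fap, a surface protease of activated fibroblasts, had 0 to 5.97 in Control against 198, 42.5, 945 and 1173 in Notch3IC (adjusted p = 0.0247). The call of Pdgfrb held with any 1 library left out, and that of Fap was lost when the Set 3 or the Set 4 Control library was dropped (adjusted p = 0.104 in each). Neither was called without Set 3 (adjusted p = 0.215 and 0.246) or without Set 4 (0.221 and 0.286). With condition alone edgeR called neither of the collagens Col1a1 (1.01, adjusted p = 0.166) and Col1a2 (1.15, adjusted p = 0.154), while DESeq2 called Col1a2 higher. Both were called higher with the block (adjusted p = 0.0386 and 0.0708). Dcn, which encodes the matrix proteoglycan decorin, was lower in all 4 sets and under the fold-change limit in both fits (-0.47, adjusted p = 0.809 with condition alone, and -0.53, adjusted p = 0.0275 with the block). With the block, 0 fibroblast markers were called when Set 1, Set 3 or Set 4 was dropped, with 3, 4 and 4 higher and 1 lower at an unadjusted p under 0.05. Among all genes tested, 13.8%, 11.4% and 10.9% were then higher and 12%, 8.5% and 8.68% lower. Thy1 and Lum, which define many fibroblasts, averaged 1.18 and 1.39 normalized counts in Control against 1.35 and 1.16 in Notch3IC. The part of these markers in the lower values of the identity genes was not tested.

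Leukocyte and endothelial RNA was near 0. Leukocyte markers summed to 57.5 to 129 normalized counts in Control and 84.99 to 128 in Notch3IC, with Cd68 the most abundant per exon length, Cd3e at 0 and Ptprc at a mean of 0 in Control against 0.559 in Notch3IC. Csf1r, the receptor of macrophage growth factor, was called higher, from 8.67 ± 2.38 to 24.7 ± 11.02 normalized counts (log2 fold change 1.52, adjusted p = 0.0719), but not without the Control or Notch3IC library of Sets 1, 3 or 4 (adjusted p 0.11 to 0.228). Cd68 was not called (-0.40, adjusted p = 0.61). Endothelial markers summed to 12.7 to 38.2 in Control and 28.5 to 50.3 in Notch3IC, with Erg and Cldn5 at 0. Of these, Pecam1 and Kdr were tested and edgeR and DESeq2 called 0, with 0 at an unadjusted p under 0.05.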

How the data were processed

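The 8 libraries were made from polyadenylated RNA, 1 per line. The authors deposited raw counts of reads per gene symbol, made with TopHat and Cufflinks on mm9 per the submitters' processing notes. They compared them with DESeq. Versions, annotation and strandedness are not given in the sources used here. Totals were 15524262 to 28208072 counts per library. The test was checked on simulated data.

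Notch3IC was compared with Control by edgeR 4.0.16 (TMM, filterByExpr, robust quasi-likelihood F test, condition alone) in R 4.3.3, with Benjamini-Hochberg adjustment over 12430 genes. The biological coefficient of variation was 26.3%, and 14.1% with the set as a block. Each set is a matched pair by the study's methods, and deviations from the group means correlated at 0.79, 0.41, 0.57 and 0.43 within sets, against -0.51 to 0.40 across sets. Taking deviations from group means itself lowers the values across sets. Between Sets 3 and 4 the crossed values were 0.39 and 0.40, so the check separates those 2 pairs poorly. Within-set ratios had 0.5 added to both values. Exon lengths and overlaps come from GENCODE on GRCm38, with a length for 12311 of the genes tested. Promoter windows come from RefSeq, which matched 5 of the 10 genes.

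Alternatives were DESeq2 1.42.0, other normalizations and filters, an adjusted p threshold of 0.05, dropping the fold-change limit, the block, and leaving out libraries or sets. The block with a set left out was added after the data were seen. The identity genes and the lists were chosen with earlier results of these data known. Genes named are the 10 identity genes, the called genes and the 3 most abundant per exon length of each list, and Notch3, Hey1, Heyl and Nrarp, and any other gene was named after its values were seen. One of the folate genes this rule names is not reported here. The other lists were the GATA, Pax, uroplakin, mucin, basonuclin and Lrrn, folate, Wt1 partner, mesothelial, gonadal, Müllerian, granulosa, leukocyte, endothelial and fibroblast genes. Figures were drawn with Matplotlib 3.10.9.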

Additional observations from a re-analysis of the deposited data

How the results depend on the processing

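Over all genes tested, 423 were called higher and 92 lower with condition alone, and 0 identity genes were higher under any alternative. The replicate block gave 5 identity genes lower, 645 genes higher and 315 lower, and DESeq2 gave 2, 708 and 192. At an adjusted p under 0.05, 0 identity genes and 48 genes were lower, and 4 identity genes differed between sets in place of 7. Without a fold-change limit 210 genes were lower. Without a library, the counts ran from 0 to 3 identity genes lower, from 75 to 702 genes higher and from 8 to 305 lower, and from 0 to 8 identity genes differing between sets. Without Set 1, 3 identity genes and 151 genes were lower. Without Set 2 there were 3 identity genes lower, 670 genes higher and 229 lower, without Set 3 there were 0, 1 and 0, and without Set 4 there were 0, 0 and 0. With the replicate block the counts were 0, 46 and 23 without Set 1, 5, 904 and 426 without Set 2, 0, 59 and 22 without Set 3, and 0, 129 and 30 without Set 4. The cause was not tested. No log2 fold change of the 8 identity genes changed sign in 24 alternatives each. Msln ranged from -3.39 to -2.27 and lost its call in 10 of them. The other normalizations and filters changed no call of an identity gene. Folr1, with 49 to 315 counts per library, and Pax8, with at most 3, had the fewest counts behind their values.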

Other observations

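The granulosa and steroidogenic list held 1 gene called higher and 1 called lower among 4 tested. Star, which encodes the protein that carries cholesterol into mitochondria for steroid synthesis, had 214, 586, 835 and 629 normalized counts in Control against 125, 202, 108.5 and 133 in Notch3IC, in the order of the sets. Its groups did not overlap, and the log2 fold change was -1.999 (SE 0.39, edgeR adjusted p = 0.0382). Inhbb, an inhibin and activin subunit, had 7.93, 32.2, 56.5 and 30.1 in Control against 275, 108, 817 and 351 in Notch3IC, a log2 fold change of 3.61 (SE 0.71, adjusted p = 0.0386). Neither was called when the Set 3 or Set 4 Control library or the Set 4 Notch3IC library was dropped, and Star was not called without the Notch3IC library of Set 3 either (adjusted p 0.104 to 0.139). Inha had 31.4 ± 10.2 normalized counts in Control against 30.5 ± 6.44 in Notch3IC. Fshr, Lhcgr, Cyp19a1 and Hsd3b1 had 0 counts in every library.

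Of the Pax genes, Pax6 was called higher on few counts, with 4 to 6 raw counts per Control library against 18, 20, 22 and 52 in Notch3IC in set order (log2 fold change 2.68, SE 0.37, adjusted p = 0.0169). With condition alone the call held with any 1 library left out and was lost without Set 3 (adjusted p = 0.215) or Set 4 (0.221). The block also called Pax6 (2.67, adjusted p = 0.0156). That call held when Set 3 or Set 4 was dropped and was lost when Set 1 was dropped. Pax3 was the most abundant of the family per exon length and was not called (-0.41, adjusted p = 0.299). Pax7 had at most 16 raw counts.

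Among 5 uroplakins in the files, Upk3b and Upk1b were the 2 tested, Upk1a had at most 13 raw counts, and Upk2 and Upk3a had 0. Among the transmembrane mucins Muc1 alone was tested, at 39.3 ± 19.2 normalized counts in Control against 41.9 ± 13.4 in Notch3IC (log2 fold change 0.10, adjusted p = 0.935), and Muc13 had at most 10 raw counts and Muc15 at most 1. Bnc2, the other basonuclin, was not called (-0.22, 95% interval -0.78 to 0.34, adjusted p = 0.706).

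The folate list had 8 genes tested, Folr1 among them, and neither edgeR nor DESeq2 called any, and both had 2 higher and 0 lower at an unadjusted p under 0.05. Fpgs (-0.09, adjusted p = 0.901) and Ggh (0.45, adjusted p = 0.14) were among the 3 most abundant per exon length. Of 8 tested Wt1 partners and targets edgeR called 0, while DESeq2 called Rspo1 higher and 1 had an unadjusted edgeR p under 0.05. With the block Rspo1 was called higher and Amhr2 and Podxl lower, and all 3 calls were lost when Set 1, Set 3 or Set 4 was dropped from that fit. Podxl, which encodes the sialomucin podocalyxin, had 4782, 8633, 15492 and 7639 normalized counts in Control against 1826, 7561, 5091 and 2802 in Notch3IC (-1.08, adjusted p = 0.284 with condition alone and 0.0427 with the block). Wnt4 (0.62, adjusted p = 0.531) and Aldh1a2 (0.27, adjusted p = 0.81) were not called.

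For the 8 tested identity genes and for the library totals, the library farthest from the other 3 of its group was compared with Dixon's 95% critical value for the gap as a share of the range. It was passed in 0 of 18 groups, where chance gives about 0.9.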
